A study of Sus scrofa with 11 samples.

Results

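The 10 genes described here encode the heavy chains of pig major histocompatibility complex (MHC) class I, named swine leukocyte antigen (SLA), and 3 proteins that prepare peptides for them. They are SLA-1, SLA-2, SLA-3, SLA-5, SLA-6, SLA-7, SLA-8, TAP1, TAP2 and ERAP1, and they were chosen by name from the 30376 genes of the expression data. RNA was sequenced from full-thickness skin wounds of Yucatan minipigs, made with a 2 cm biopsy punch and excised on day 10. Each wound gave 1 library. The diabetic group held 7 wounds of 1 female minipig that was given streptozotocin (STZ), a toxin of the insulin-producing beta cells, at 6 months of age, was wounded 60 days later, and received insulin until 1 week before wounding. The non-diabetic group held 4 wounds of another female Yucatan minipig without STZ, whose age is not given in the sources used here. Since each group came from 1 animal, diabetes, the animal and the SLA alleles that the animal carried cannot be told apart, and every p-value below measures only how wounds on 1 animal varied.

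A class I molecule is a heavy chain paired with beta-2-microglobulin (B2M) and a short peptide, and it shows the peptide at the cell surface to CD8 T cells and natural killer cells. Peptides are cut by the proteasome, carried into the endoplasmic reticulum by the transporter formed of TAP1 and TAP2, trimmed there by the aminopeptidase ERAP1 and loaded with the help of tapasin, calreticulin and PDIA3. In most tissues interferon gamma, through IRF1 and the coactivator NLRC5 among others, raises many of these genes together. SLA-1, SLA-2 and SLA-3 are the classical pig heavy chains, and SLA-6, SLA-7 and SLA-8 are the non-classical ones. SLA-5 is placed in neither class here, and whether it yields a working heavy chain was not tested.

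All 10 genes were matched by identifier to the NCBI annotation of the pig genome build Sscrofa11.1. The classical genes lie close together on the plus strand of chromosome 7, SLA-1 from 22824137 to 22920154, SLA-2 from 22916747 to 22959405 and SLA-3 from 22938211 to 22942735, which lies within the span of SLA-2 without sharing exon bases with it. SLA-5, annotated as 19 exon pieces, lies among them from 22851888 to 22854782. The non-classical genes follow on the same chromosome, SLA-8 from 23622352 to 23625818, SLA-7 from 23634731 to 23638722 and SLA-6 from 23645335 to 23649342, the last pair on the minus strand. TAP2 lies from 25045085 to 25056915 and TAP1 from 25062772 to 25071989, both on the minus strand of chromosome 7, while ERAP1 lies on the minus strand of chromosome 2 from 103378428 to 103415066. LOC100513601, another class I heavy chain gene with 9 exon blocks from 22888616 to 22920154, carries no SLA symbol in the expression data and so is no member. It shares 95 exon bases with SLA-1, and it was chosen for description after its values were seen because the balance of the members turns on it.

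The heavy chain genes resemble each other closely, which bears on how reads could be assigned to them. SLA-5 is annotated in pieces around small gaps and was not aligned. The following stretches, read from the Sscrofa11.1 genome in the direction of each gene, are the first 60 bases of the 276-base exon of the conserved alpha-3 domain, with bases that differ from SLA-2 in capitals.

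SLA-2 (chr7:22957789-22957848, plus strand): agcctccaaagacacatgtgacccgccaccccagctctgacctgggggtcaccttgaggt
SLA-1 (chr7:22826215-22826274, plus strand): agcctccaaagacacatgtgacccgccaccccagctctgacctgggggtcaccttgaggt
SLA-3 (chr7:22940066-22940125, plus strand): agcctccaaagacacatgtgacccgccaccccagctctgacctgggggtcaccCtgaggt
LOC100513601 (chr7:22890686-22890745, plus strand): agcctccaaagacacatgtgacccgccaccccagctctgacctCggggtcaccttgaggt
SLA-7 (chr7:23636691-23636750, minus strand): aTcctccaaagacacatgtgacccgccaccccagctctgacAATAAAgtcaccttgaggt
SLA-8 (chr7:23624191-23624250, plus strand): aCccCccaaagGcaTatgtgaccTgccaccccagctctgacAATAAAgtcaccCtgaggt
SLA-6 (chr7:23647438-23647497, minus strand): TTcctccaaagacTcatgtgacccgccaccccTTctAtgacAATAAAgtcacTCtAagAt

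Over the whole exon, SLA-1 differed from SLA-2 at 3 bases, SLA-3 and LOC100513601 at 2 each, SLA-7 at 16, SLA-8 at 20 and SLA-6 at 25. Windows of 100 bases were cut within each exon block, so none ran from 1 exon into the next and shorter blocks gave none. The share of a gene's windows found letter for letter in another class I gene was 8.65% for SLA-1, 4.58% for SLA-2 and 2.55% for SLA-3. It was 16.3% for LOC100513601, 2.19% for SLA-8, 2.07% for SLA-7 and 0% for SLA-6. For SLA-5 it was 30.6%, all shared with SLA-2, but of only 186 windows from 1053 exon bases. How reads with several matching places were counted is not given in the sources used here, so the values of the classical genes, LOC100513601 and SLA-5 are uncertain to that extent. The alleles of the animals can differ from this reference, and they are not given in the sources used here.

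Before 1 annotated transcript start of each SLA gene except SLA-5 lies a stretch that holds a kappaB-type motif, the kind of site bound by NF-kappaB, followed by a core of the interferon-response kind. It is shown because these genes have it in common. The capitals mark the kappaB letters (GGGGA, any base, TC, any pair of bases and C) and the core TTTCACTT, which were chosen after these windows had been read, and positions count back from that transcript start. SLA-1, SLA-2, SLA-7 and LOC100513601 are annotated with 3, 9, 4 and 2 transcripts, some of which start further upstream, so that in these genes the stretch lies within the annotated gene.

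SLA-1 (chr7:22824244-22824273, plus strand): tGGGGAGTCCCCgtgtccccagTTTCACTT
SLA-2 (chr7:22955964-22955993, plus strand): tGGGGAGTCCCCgtgtccccagTTTCACTT
SLA-3 (chr7:22938108-22938137, plus strand): tGGGGAGTCCCCgtgtccccagTTTCACTT
LOC100513601 (chr7:22888713-22888742, plus strand): tGGGGAGTCCCCgtgtccccagTTTCACTT
SLA-8 (chr7:23622258-23622287, plus strand): tGGGGATTCTCCatctctcggtTTTCACTT
SLA-7 (chr7:23638570-23638599, minus strand): gttGGGGATTCCACcggctcagTTTCACTT
SLA-6 (chr7:23649399-23649428, minus strand): gggattctccacctccccagcgTTTCACTT
SLA-5 (chr7:22851674-22851703, plus strand): gttggagtccccgtgtccccagTTTCACTT
ERAP1 (chr2:103415212-103415241, minus strand): ccgcctgcagctccggttctacTTTCACTT

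SLA-1, SLA-2, SLA-3 and LOC100513601 had the same 30 letters, at 131, 201, 129 and 212 bases before their starts. In SLA-6 the kappaB letters begin 1 base before the stretch shown, and in SLA-5 they were not found. TTTCACTT was present in the window from 250 bases before to 50 bases after the start in all 7 SLA genes and in ERAP1. Neither motif was found in the windows of TAP1, TAP2 or B2M. The start used was that of the first curated (NM) transcript or, without one, the most downstream annotated start. Only these exact letters were searched, so not finding them does not show that a gene lacks sites of either kind. Searched on both strands, TTTCACTT occurred in 383 of 20656 windows of this length (1.85%), the kappaB letters, whose form GGGGAGTCCCC matches both strands at the same place, in 207 (1.00%), and both in 9 (0.0436%). The search covered protein-coding genes and did not leave out the class I genes from whose windows the letters were chosen. The 9 windows with both can therefore include theirs and are no independent rate. A match of letters is a description of the reference and not a measured binding site.

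Expression was deposited as FPKM, a count of fragments scaled by gene length and library size. Depth was 28314785 to 40168372 reads on genes in diabetic and 32961018 to 36872400 in non-diabetic wounds. The library sizes recovered from the FPKM, 25768700 to 44655900 over the wounds, were not these totals. Diabetic replicate 2 had 37922563 reads on genes and a library size of 44655900, and diabetic replicate 5 had 37723496 and 32671600. How the library sizes were set is not given in the sources used here, and this scaling acts on every level below. With them, 1 read on a gene of 2 kb was worth 0.0112 to 0.0194 FPKM. Diabetic replicate 4 and non-diabetic replicate 1 stood apart from the other wounds on the first principal component, at 76.0 and 72.2 against -38.9 to -7.00, and had the lowest summed keratinocyte markers of their groups. These 7 markers summed to 40.2 to 6078 FPKM in diabetic and 246 to 2252 FPKM in non-diabetic wounds, and the neutrophil markers to 23.9 to 6038 and 167 to 7241 FPKM, again with the same wounds lowest. Diabetic replicate 3 held skeletal muscle transcripts at a sum of 1293 FPKM, against at most 0.166 FPKM in every other wound. The 6 fibroblast markers summed to at least 18980 FPKM in every wound and no marker of the 11 lists examined was at 0 throughout. In such bulk tissue, a change in the number of cells of a type and a change in the RNA per cell cannot be told apart.

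Of the 10 genes, 4 were called higher in diabetic wounds, SLA-1, SLA-5, SLA-8 and ERAP1, none was called lower and 6 were not called (limma). At an unadjusted p under 0.05, 5 were higher and 1, SLA-3, was lower, against 18.4% of all genes tested in either direction. A call required in limma, on log2(FPKM + 0.5), that the adjusted p be under 0.05 and the log2 fold change exceed 0.5 in either direction, with Benjamini-Hochberg adjustment over the 13956 genes with at least 0.5 FPKM in at least 4 wounds. Among all genes tested, 3.00% were called, 1.35% higher and 1.66% lower. All 10 genes entered the test, but SLA-5 and ERAP1 entered it only through the 7 diabetic wounds, so a count over the 10 is a description. Of the 8 genes at or above 0.5 FPKM in every wound, 2 were called, SLA-1 and SLA-8. In SLA-5, SLA-7, SLA-8 and ERAP1 every diabetic wound lay above every non-diabetic wound, an arrangement found in 2.69% of the genes tested, while 5.65% had groups apart in either order. The median log2 fold change of the 10 was 0.36, against 0.01 over all genes tested. This median includes SLA-5 and ERAP1 and is likewise a description.

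**Figure D1:**
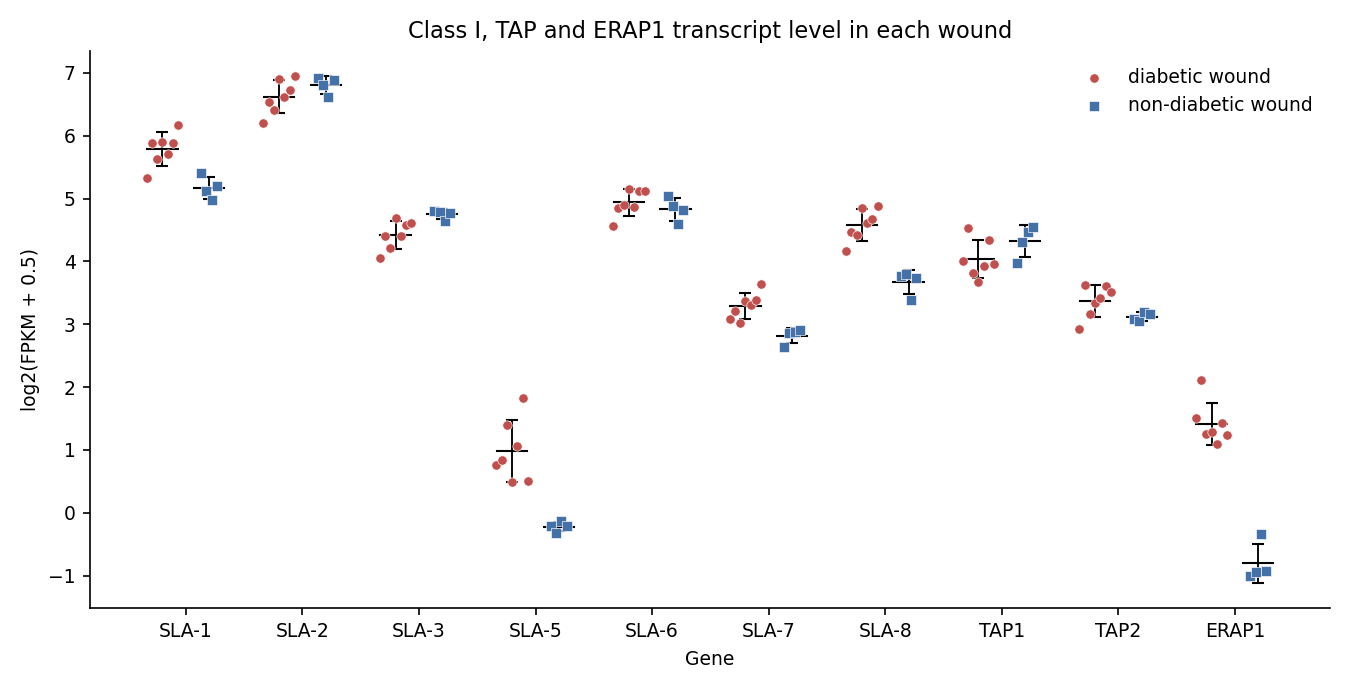
Transcript level of the 10 genes in each wound, as log2(FPKM + 0.5) on the vertical axis, with circles for the 7 diabetic and squares for the 4 non-diabetic wounds, and bars for mean and SD. The groups are apart for SLA-5, SLA-7, SLA-8 and ERAP1, overlap in 1 diabetic wound for SLA-1, and the diabetic mean is the lower one for SLA-2, SLA-3 and TAP1, which were not called.

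SLA-1, a classical heavy chain, was measured at 39.5, 58.8, 48.8, 59.5, 51.7, 58.4 and 71.5 FPKM in diabetic replicates 1 to 7 and at 41.7, 34.2, 31.0 and 36.2 FPKM in non-diabetic replicates 1 to 4. Diabetic replicate 1 fell below the highest non-diabetic wound, and the other 6 diabetic wounds lay above all of them. The means were 55.5 ± 10.1 FPKM (SD, n = 7) and 35.8 ± 4.52 FPKM (SD, n = 4), with a log2 fold change of 0.61 ± 0.15 (SE, limma, adjusted p = 0.0419). This call lay close to the threshold. It was kept only without diabetic replicate 1 when wounds were left out one at a time, with adjusted p from 0.0117 to 0.144 (limma). Without any one of the non-diabetic wounds the log2 fold change was 0.55 to 0.69. Without both wounds that stood apart the log2 fold change was 0.67 (adjusted p = 0.0842, limma), and with quantile normalization it was 0.50 (adjusted p = 0.107, limma).

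SLA-2, another classical heavy chain and the most abundant of the 10 genes, was not called. Its values were 73.5, 92.4, 84.5, 120, 97.5, 105 and 123 FPKM in diabetic wounds and 121, 111, 97.5 and 118 FPKM in non-diabetic wounds, and the groups overlapped. Its log2 fold change was -0.19 with a 95% interval from -0.49 to 0.12 (adjusted p = 0.529, limma). SLA-3, the least abundant classical gene, had 16.1, 20.6, 18.0, 25.3, 20.8, 23.3 and 23.8 FPKM in diabetic and 27.5, 27.0, 24.4 and 26.9 FPKM in non-diabetic wounds. Only diabetic replicate 4 reached into the non-diabetic range, and the other 6 lay below it. Its log2 fold change of -0.33 ± 0.12 (SE, limma, adjusted p = 0.163) did not pass the test over all genes.

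Of the non-classical genes, SLA-8 differed most. It was measured at 17.4, 21.6, 20.9, 28.4, 24.0, 25.0 and 28.8 FPKM in diabetic wounds and at 13.1, 13.4, 9.93 and 12.9 FPKM in non-diabetic wounds. Every diabetic wound lay above every non-diabetic wound, and the means of 23.7 ± 4.13 FPKM (SD, n = 7) and 12.3 ± 1.62 FPKM (SD, n = 4) gave a log2 fold change of 0.91 ± 0.14 (SE, limma, adjusted p = 0.00574). SLA-7 lay lower, at 7.93, 8.72, 7.59, 9.89, 9.40, 9.99 and 11.9 FPKM against 5.73, 6.72, 6.86 and 6.97 FPKM. Its groups were apart as well, but the log2 fold change of 0.47 ± 0.12 (SE, limma, adjusted p = 0.0558) missed both thresholds. SLA-6 ranged from 23.1 to 34.9 FPKM, with a median of 29.3 FPKM, in diabetic wounds and was 32.2, 29.1, 23.6 and 27.6 FPKM in non-diabetic wounds. These ranges overlapped almost entirely, and the log2 fold change was 0.11 with a 95% interval from -0.17 to 0.38 (adjusted p = 0.709, limma).

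SLA-5 was the least abundant of the SLA genes. It stood at 1.20, 1.30, 2.13, 0.898, 1.60, 3.04 and 0.921 FPKM in diabetic wounds, from 25 to 88 reads, and at 0.365, 0.299, 0.409 and 0.366 FPKM in non-diabetic wounds, from 10 to 15 reads. The groups did not overlap, and the log2 fold change was 1.20 ± 0.24 (SE, limma, adjusted p = 0.0182). Like ERAP1 below, SLA-5 reached 0.5 FPKM only in the 7 diabetic wounds and so passed the filter through the group where it was high. Its p-values and the separation of its groups are therefore descriptions. The call was lost without any one of the non-diabetic wounds, with adjusted p from 0.0525 to 0.0565 (limma) at a log2 fold change of 1.17 to 1.23. Of its 186 windows of 100 bases, 57 are also those of SLA-2, whose reads outnumbered those of SLA-5 in every wound.

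LOC100513601 was the most abundant of the 9 class I heavy chain genes and was called lower. It had 142, 151, 182, 181, 200, 223 and 201 FPKM in diabetic wounds and 315, 311, 273 and 318 FPKM in non-diabetic wounds. No diabetic wound reached the lowest non-diabetic one, with means of 183 ± 28.5 FPKM (SD, n = 7) and 304 ± 20.8 FPKM (SD, n = 4) and a log2 fold change of -0.75 ± 0.12 (SE, limma, adjusted p = 0.00824). Its annotation carries SLA-1 among the synonyms. Summed with SLA-1, the pair came to 238 ± 34.8 FPKM (SD, n = 7) for the diabetic and 340 ± 24.3 FPKM (SD, n = 4) for the non-diabetic wounds, so that the sum was lower in diabetic wounds where SLA-1 alone was higher (difference -0.52 on the log2 scale, two-sided exact permutation p = 0.00303, the smallest that the 330 splits of the wounds allow).

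The total of heavy chain transcripts therefore depended on which genes were counted. The 7 SLA genes summed to 179 to 294 FPKM in diabetic and 194 to 242 FPKM in non-diabetic wounds, and the difference of 0.11 on the log2 scale was within the spread of the wounds (exact permutation p = 0.439, where 18.1% of single genes tested had one under 0.05). With LOC100513601 and LOC100515902, a further class I gene at 1.19 and 1.11 FPKM on average that was added after its values were seen, the sums were 425 ± 62.0 FPKM (SD, n = 7) and 527 ± 40.3 FPKM (SD, n = 4). On this count 5 of 7 diabetic wounds lay below all non-diabetic wounds, a difference of -0.32 on the log2 scale (exact permutation p = 0.0242).

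**Figure D2:**
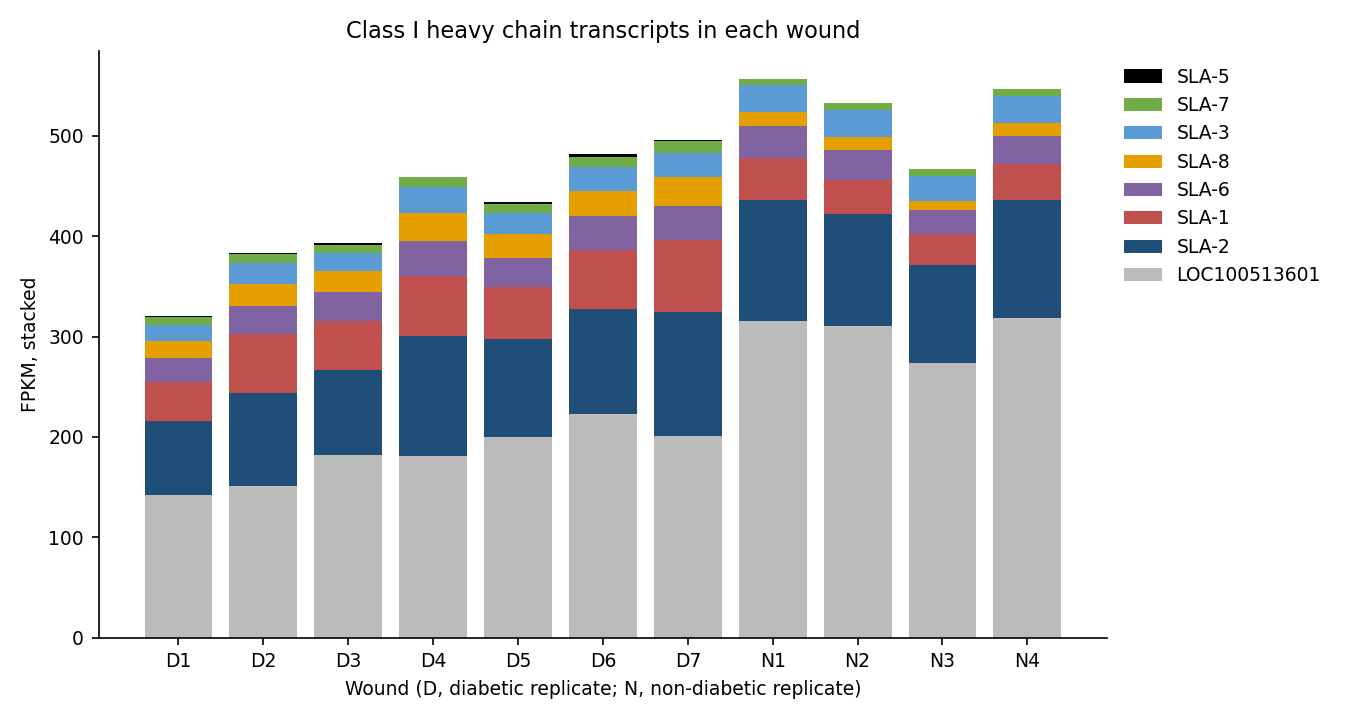
Class I heavy chain transcripts stacked in each wound, in FPKM from 0, for the 7 SLA genes and LOC100513601, with D for diabetic and N for non-diabetic replicates (LOC100515902, at 1.19 and 1.11 FPKM on average, is not drawn). The LOC100513601 segment is 142 to 223 FPKM in the diabetic and 273 to 318 FPKM in the non-diabetic wounds, while the SLA-8 segment is 17.4 to 28.8 against 9.93 to 13.4 FPKM.

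Set against each other within a wound, 6 of the 7 SLA genes held shares of their summed transcripts that did not overlap between the groups, and among all genes tested 4.23% had groups apart when divided by the same sum. Since the 7 shares add up to the whole, they are not independent of each other, and the count is a description. A share of the summed FPKM of the 7 SLA genes cancels whatever scales all of them in that wound. SLA-1 made up 21.4 to 25.4% of this sum in diabetic and 15.4 to 17.3% in non-diabetic wounds. SLA-8 made up 9.31 to 10.3% against 5.13 to 6.03%. For SLA-2 the order was the opposite, 39.8 to 43.0% against 50.05 to 51.5%, and SLA-3 followed it with 8.11 to 9.07% against 11.4 to 12.6%. SLA-5 held 0.313 to 1.17% against 0.135 to 0.211%, and SLA-7 held 3.55 to 4.44% against 2.37 to 3.54%, so that its ranges all but touched, and with the pseudocount of the test they overlapped. SLA-6 overlapped, at 11.6 to 13.9% against 12.1 to 13.3%.

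Tested as the log2 ratio of each gene to the sum of the 7, SLA-1 (0.50), SLA-8 (0.80), SLA-2 (-0.30) and SLA-3 (-0.44) each differed with an exact permutation p of 0.00303. SLA-5 differed by 1.09 (exact permutation p = 0.0121) and SLA-7 by 0.36 (exact permutation p = 0.00606). The SLA-6 ratio differed by -0.003 (exact permutation p = 0.942). Of the 11 ratios between members that were compared, 9 had an exact permutation p under 0.05, unadjusted, and 12.6% of all genes tested had one when set over the same sum. Most of those genes are no part of the sum, the ratios of the 7 are tied to each other through it, and SLA-5 and ERAP1 passed the filter only through the diabetic wounds, so nothing is read from setting the 9 beside this share.

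Every ratio to the sum depended on the choice of denominator. With LOC100513601 and LOC100515902 in it, all of them shifted upwards by about the same amount, to 0.93 for SLA-1, 0.79 for SLA-7, 1.23 for SLA-8 and 1.52 for SLA-5, each with an exact permutation p of 0.00303. The SLA-2 ratio turned to 0.13 (exact permutation p = 0.0303), the SLA-3 ratio came to -0.01 (exact permutation p = 0.842) and the SLA-6 ratio came to 0.43 (exact permutation p = 0.00303), an alternative added after the data were seen. Over the sum of the other 6 SLA genes the SLA-2 ratio was -0.54 (exact permutation p = 0.00303). LOC100513601 itself held 39.3 to 46.2% of that wider sum in diabetic and 56.5 to 58.4% in non-diabetic wounds. SLA-1 and SLA-8 kept larger shares in diabetic wounds with either denominator, at 11.9 to 15.3% against 6.40 to 7.48% and 5.19 to 6.17% against 2.12 to 2.51% of the wider sum.

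**Figure D3:**
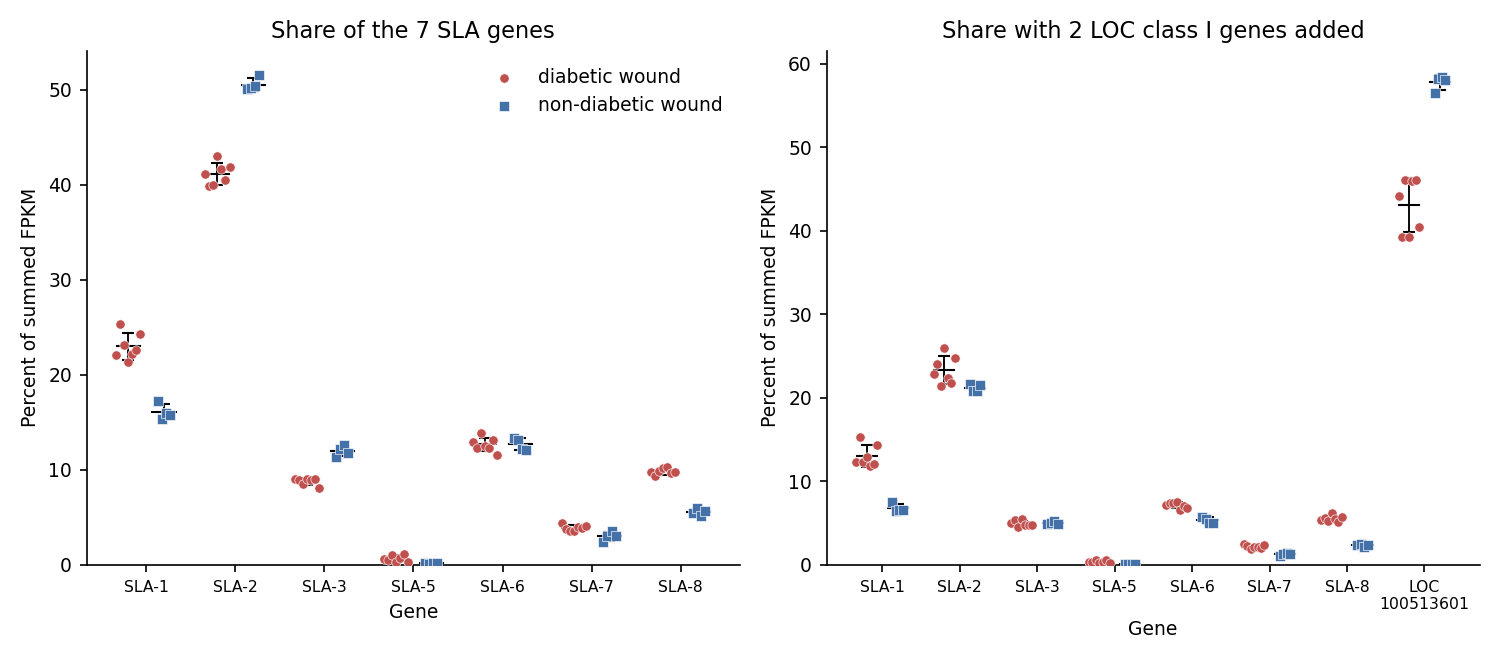
Share of each heavy chain gene in the summed class I FPKM of each wound, in percent from 0, over the 7 SLA genes at left and with LOC100513601 and LOC100515902 added at right. Circles are diabetic and squares non-diabetic wounds, with bars for mean and SD. SLA-2 lies at 39.8 to 43.0% in diabetic and 50.05 to 51.5% in non-diabetic wounds at left, and the groups overlap at right.

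The genes also varied together from wound to wound within a group. With the group means removed, the log2 level of SLA-2 followed that of the summed SLA genes with a Pearson r of 0.99 over the 11 wounds, SLA-8 with 0.96, SLA-3 with 0.96, SLA-1 with 0.94 and SLA-6 with 0.93. These genes are parts of the sum, and the wounds share library and scaling, so the values are descriptions. SLA-7 had 0.68 and LOC100513601, which is outside the sum, 0.70, whereas SLA-5 had -0.19. TAP2 (0.63) lay closer to the heavy chains than TAP1 (-0.18) or ERAP1 (-0.37). The 5 genes outside the members with the most similar pattern were LOC106505221 (0.96), TMEM50A (0.95), ATP2A3 (0.95), PSAP (0.95) and ARHGAP4 (0.94), the first of them at only 0.487 and 0.558 FPKM on average.

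TAP1 and TAP2, whose proteins together form the peptide transporter, had fold changes of opposite sign. TAP1 had 15.6, 22.6, 13.6, 12.2, 14.8, 19.7 and 15.1 FPKM in diabetic and 15.3, 19.3, 21.7 and 22.8 FPKM in non-diabetic wounds, which gave a log2 fold change of -0.29 with a 95% interval from -0.66 to 0.08 (adjusted p = 0.398, limma). TAP2 had 7.10, 11.9, 8.44, 9.66, 10.2, 11.7 and 10.9 FPKM against 7.94, 7.78, 8.70 and 8.42 FPKM, a log2 fold change of 0.25 with a 95% interval from -0.04 to 0.54 (adjusted p = 0.343, limma). Neither gene was called, and both pairs of ranges overlapped. The ratio of TAP1 to TAP2 within a wound, however, was lower in diabetic wounds by 0.54 on the log2 scale (exact permutation p = 0.0152), with overlapping groups. TAP1 set over the summed SLA genes differed by -0.40, within the spread of the wounds (exact permutation p = 0.142).

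ERAP1 showed the largest difference of the 10. Diabetic replicates 1 to 7 had 2.35, 3.81, 1.89, 1.94, 1.63, 2.18 and 1.86 FPKM, from 218 to 772 reads. The non-diabetic wounds had 0 reads in replicate 1, 3 reads in replicate 2, 46 reads in replicate 3 and 5 reads in replicate 4, which are 0, 0.0208, 0.291 and 0.0283 FPKM. A count of 0 allows up to 3 reads, or 0.0231 FPKM, in that wound. The log2 fold change was 2.22 ± 0.20 (SE, limma, adjusted p = 0.000167) on the scale of log2(FPKM + 0.5), which understates the change of a gene this low. Set over the summed SLA genes, ERAP1 was higher by 2.11 on the log2 scale (exact permutation p = 0.00303). ERAP1 reached 0.5 FPKM only in the 7 diabetic wounds and so passed the filter through the group where it was high. Both of its p-values are therefore descriptions. The ratio of mean FPKM was 26.3, and without non-diabetic replicate 3 it was 137. The 137 divides by a mean of 0.0163 FPKM that rests on 0, 3 and 5 reads, with a wound left out after its value was seen. At this depth its size is not determined.

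Of the neighbours of ERAP1 on chromosome 2, which were looked at after the ERAP1 values were seen, CAST, ERAP2 and LNPEP passed the filter, had reads in both groups and were not called. CAST, a calpain inhibitor gene on the opposite strand whose annotated end overlaps that of ERAP1, so that reads there cannot be told apart without strand, had 24.1 ± 5.64 FPKM (SD, n = 7) and 21.9 ± 3.41 FPKM (SD, n = 4), with adjusted p = 0.787 (limma). ERAP2, the related aminopeptidase, had 2.88 ± 1.01 and 2.42 ± 0.811 FPKM (adjusted p = 0.697, limma), and LNPEP, a further aminopeptidase of the same family, had 1.05 ± 0.501 and 1.04 ± 0.328 FPKM (adjusted p = 0.962, limma). Within the groups ERAP1 followed TAP1 more than any other member, with r = 0.70 over the 11 wounds. Non-diabetic replicates 1, 2 and 4 had only 0, 3 and 5 reads of ERAP1. Diabetic replicate 2 was the highest diabetic wound in both genes, at 3.81 FPKM of ERAP1 and 22.6 FPKM of TAP1. How far the r rests on these wounds was not tested.

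**Figure D4:**
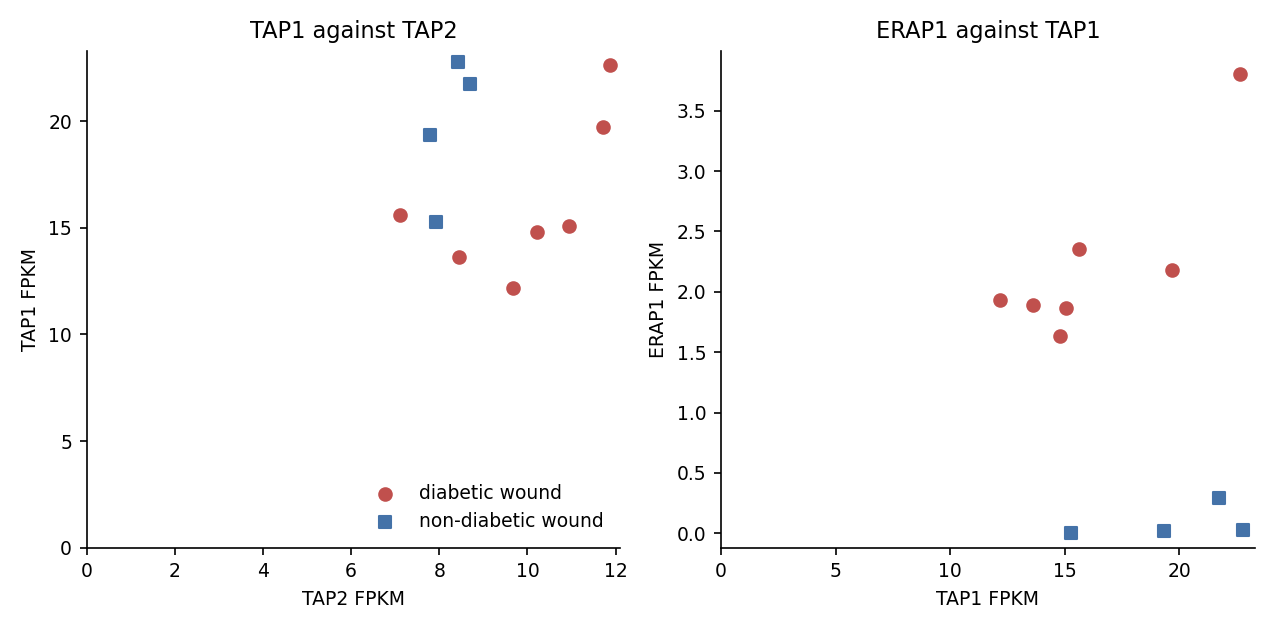
Level of TAP1 against TAP2 at left and of ERAP1 against TAP1 at right, each point 1 wound in FPKM, with circles for diabetic and squares for non-diabetic wounds. The non-diabetic wounds lie at a TAP2 level of 7.78 to 8.70 FPKM with TAP1 up to 22.8 FPKM, and at or below 0.291 FPKM of ERAP1.

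B2M, the light chain that every class I molecule needs, is annotated as 2 genes on the minus strand of chromosome 1, from 126837721 to 126844043 and from 126865767 to 126878501. The gene with identifier 110255236 had 85.0 to 122 FPKM, with a median of 116 FPKM, in diabetic wounds and 57.3, 56.1, 65.2 and 73.2 FPKM in non-diabetic wounds. It was called higher, with a log2 fold change of 0.76 ± 0.13 (SE, limma, adjusted p = 0.00799) and groups that did not overlap, although without both wounds that stood apart the adjusted p was 0.0506. The gene with identifier 397033 had 93.8 to 147 FPKM against 162, 89.2, 100 and 120 FPKM, a log2 fold change of 0.05 (adjusted p = 0.908, limma), and its sign turned with other scalings. The sequences of the 2 B2M genes were not compared here. How reads that match both were counted is not given in the sources used here. The value of each B2M gene taken singly is uncertain to that extent. Summed over both, B2M was 228 ± 34.1 FPKM (SD, n = 7) and 181 ± 32.2 FPKM (SD, n = 4), with an exact permutation p of 0.0545. The summed SLA genes set over the summed B2M were lower in diabetic wounds by 0.23 on the log2 scale (exact permutation p = 0.00909). The difference was -0.12 without non-diabetic replicate 2 (exact permutation p = 0.0417), -0.40 with reads in place of FPKM and -0.65 with the 9 class I genes summed (exact permutation p = 0.00303 in both).

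The list of the loading complex held 11 genes, with the 2 B2M genes counted apart. It also held peptidases, such as ERAP2 and LNPEP, that are not parts of the complex itself. Of the 11, 1 was called higher, the B2M gene above, and none lower. At an unadjusted p under 0.05, 2 were higher and none was lower (limma). Over all genes tested, 1.35% were called higher and 1.66% lower, and 18.4% had such a p in either direction. The median log2 fold change of the list was 0.005, against 0.01 over all genes tested. PDIA3, the most abundant gene of the list that was not called, had 449 ± 52.6 and 446 ± 37.3 FPKM (adjusted p = 0.986, limma). TAPBP, the gene of tapasin, which bridges TAP and the heavy chain, had 20.2 ± 3.33 and 16.5 ± 1.60 FPKM (adjusted p = 0.299, limma).

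No gene of the immunoproteasome list was called by limma, or had an unadjusted p under 0.05, with 9 of 9 tested and a median log2 fold change of 0.14, and 6 of the 9 above 0. Over all genes tested, 3.00% were called and 18.4% had such a p, so little is read from no call among 9 genes. PSMB8 and PSMB9, catalytic subunits of the immunoproteasome that are encoded beside the TAP genes, had 24.3 ± 4.57 and 21.0 ± 2.05 FPKM (adjusted p = 0.511, limma) and 12.7 ± 2.96 and 11.5 ± 2.91 FPKM (adjusted p = 0.749, limma). PSMB7, a constitutive subunit and the most abundant of the list, had 71.6 ± 6.47 and 64.0 ± 5.17 FPKM (adjusted p = 0.381, limma).

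Of the 17 regulators, none was called by limma, 2 had a higher and 1 a lower level at an unadjusted p under 0.05, and their median log2 fold change was 0.04. Over all genes tested, 3.00% were called and 18.4% had such a p, so these counts lie near the shares of all genes. NLRC5, the class I coactivator, had 4.12 ± 0.592 FPKM (SD, n = 7) and 3.32 ± 0.589 FPKM (SD, n = 4), a log2 fold change of 0.28 with a 95% interval from 0.004 to 0.55 (adjusted p = 0.264, limma). IRF1 had 16.3 ± 5.02 and 14.2 ± 3.45 FPKM (adjusted p = 0.705, limma). RELA, an NF-kappaB subunit and the most abundant of the list, had 38.8 ± 6.13 and 31.9 ± 2.11 FPKM (adjusted p = 0.278, limma). None of the 8 tested genes of interferon receptors and signalling was called by limma or reached an unadjusted p under 0.05, the most abundant being IFNGR2 at 47.5 and 46.2 FPKM (adjusted p = 0.933, limma). Given the shares of all genes above, little is read from no call among 8 genes. IFNG, the gene of interferon gamma, had 0 to 5 reads per diabetic and 1 to 3 reads per non-diabetic wound, so no difference was detectable at this depth. With voom on the recovered reads, no gene of the immunoproteasome, regulator, interferon or class I-like lists was called either.

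**Figure D5:**
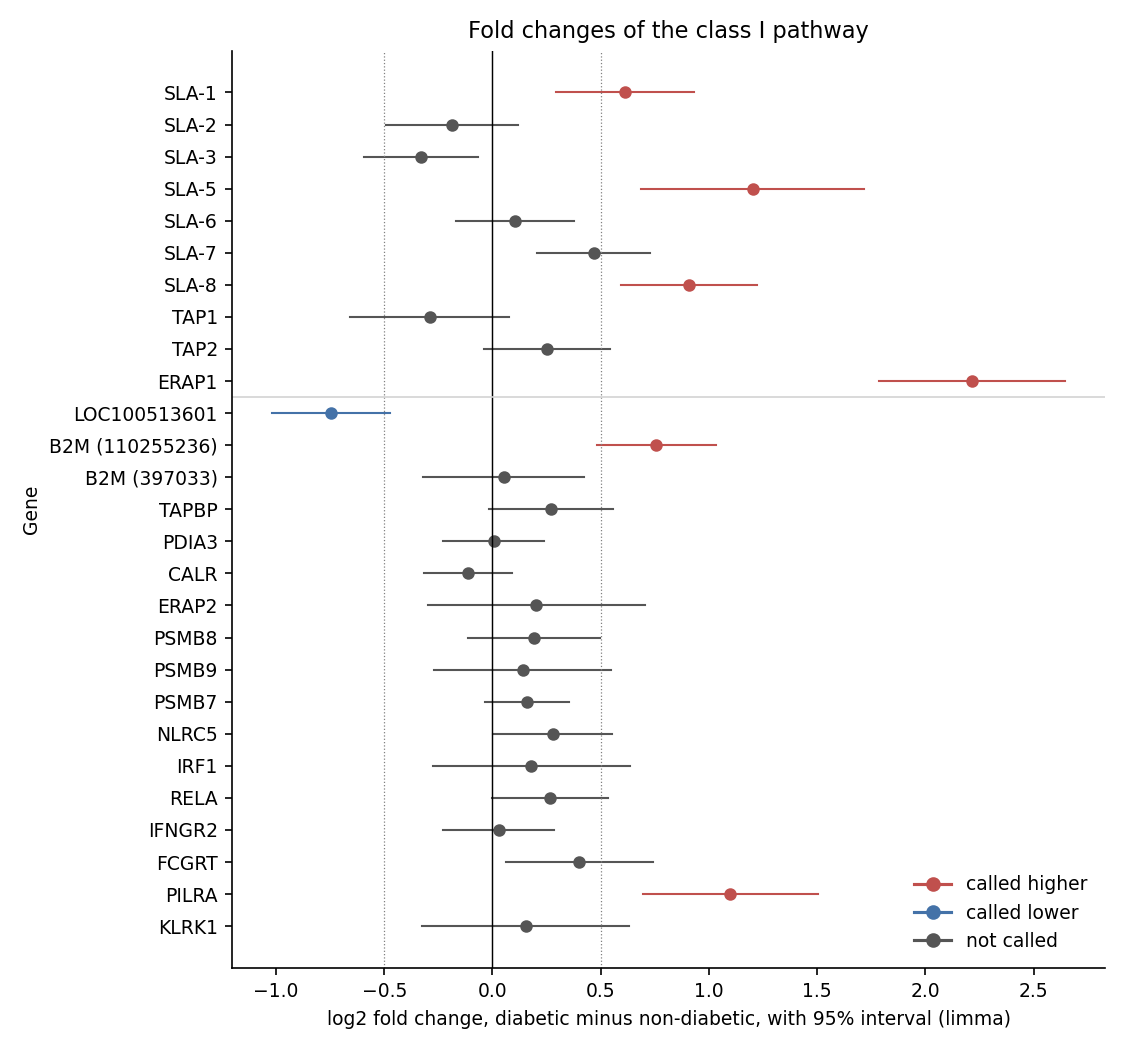
Log2 fold change between diabetic and non-diabetic wounds on the horizontal axis for the 10 genes (above the line) and for LOC100513601, both B2M genes and named pathway genes (below it), as points with 95% intervals from limma. Dotted lines mark the fold change threshold of 0.5. SLA-1, SLA-5, SLA-8, ERAP1, 1 of the 2 B2M genes and PILRA are called higher, LOC100513601 is called lower, and the other genes shown were not called.

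Class I-like molecules and receptors were the last lists. Of the 5 class I-like genes found by symbol, none was called by limma, 1 (FCGRT) had an unadjusted p under 0.05, and the median log2 fold change was 0.40. Over all genes tested, 3.00% were called and 18.4% had such a p, so the counts of both short lists are descriptions. FCGRT, the neonatal Fc receptor heavy chain and the most abundant of them, had 141 ± 26.5 and 106.3 ± 16.0 FPKM (adjusted p = 0.189, limma). Of 6 receptor genes 3 passed the filter and 1 was called, PILRA, a receptor of myeloid cells that is known for binding sialylated glycoproteins and is not an established class I receptor, with 9.02 ± 1.88 FPKM (SD, n = 7) and 3.94 ± 0.957 FPKM (SD, n = 4), a log2 fold change of 1.10 (adjusted p = 0.00862, limma) and no overlap. KLRK1, the most abundant receptor gene not called, had 0.861 and 0.711 FPKM (adjusted p = 0.767, limma).

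Markers of other cells moved beside the called genes. Over all genes tested, 1.35% were called higher and 1.66% lower, and the marker lists are short, so their counts are descriptions. Of 6 macrophage markers, 3 were called higher and all 6 had a log2 fold change above 0, and their sum was 242 to 394 FPKM in diabetic and 143 to 254 FPKM in non-diabetic wounds. Of the 4 B and plasma cell markers tested, 3 were called higher. All 5 markers of that list, the untested one included, summed to 45.5 to 103 against 14.7 to 78.0 FPKM. The 3 markers common to leukocytes, in contrast, summed to 44.0 to 78.4 and 51.3 to 69.6 FPKM, the T cell markers to 9.60 to 33.4 and 8.36 to 16.2 FPKM, and the natural killer cell markers to 15.3 to 31.2 and 16.3 to 22.3 FPKM. Of 3 adipocyte markers 1 was called lower, with sums of 15.3 to 186 against 86.0 to 202 FPKM, and of 7 keratinocyte markers 1 was called higher. The part of these cell types in the levels of the class I genes was not tested.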

How the data were processed

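RNA from 11 wounds was sequenced by the authors as poly(A) libraries with a strand-marking (dUTP) protocol, trimmed with fastp, mapped to Sscrofa11.1 with HISAT2 2.2.1, assembled with StringTie 2.2.3 and counted with featureCounts 2.0.6. The strand setting of the counting, the annotation release and the FPKM formula are not given in the sources used here. The deposited values are FPKM per gene, made by the authors from reads, gene length and library size. Multiplied by gene length, 100.0% of them were whole reads within 0.05 reads, which gave the reads behind each value. The authors tested raw counts with DESeq2; here the deposited FPKM were tested in its place with limma 3.58.1 (lmFit, eBayes with trend, R 4.3.3) on log2(FPKM + 0.5) for genes with at least 0.5 FPKM in at least 4 wounds, which was also tried on simulated data.

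For single values, sums and ratios, an exact permutation test (two-sided) ran over the 330 splits of the wounds into 7 and 4, whose smallest p is 0.00303. The limma intervals come from the spread between wounds, and the floor of reads covers counting error only. Shares, windows and motifs were computed with Python 3.11.15, numpy 2.4.6, pandas 2.3.3 and SciPy 1.17.1, and figures with matplotlib 3.10.9. Gene positions, exons and the sequences shown were read from the RefSeq genome and Annotation Release 106 of Sscrofa11.1, in which the start and end of the members are those of the deposited values. Windows of 100 bases within the exon blocks of 9 class I genes were compared letter for letter.

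The members and gene lists were chosen with earlier results of these data known. Named are the 10 members, of each list the called genes and the most abundant gene not called, B2M, NLRC5, IRF1, PSMB8, PSMB9, TAPBP and ERAP2, and the 5 genes most like the summed SLA level. The lists were the loading complex, immunoproteasome and counterparts, regulators, interferon receptors and ligand, class I-like, receptors of class I and 11 lists of cell type markers, of which keratinocyte, neutrophil, skeletal muscle, fibroblast, macrophage, B and plasma cell, leukocyte, T cell, natural killer cell and adipocyte markers are described, and endothelial markers summed to 163 to 214 FPKM in diabetic and 162 to 211 FPKM in non-diabetic wounds. A regulator that the naming rule also holds is counted in its list and is not reported here. MIC-2, MICA, MR1, CD1A, KLRC1 and LILRB1 were not matched by symbol and are not analysed here. Alternatives changed the pseudocount, filter, scaling, library weights, spread estimate, a replicate block, the side letter of the library names as covariate, the wounds included, voom on recovered reads and the denominator of the ratios.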

Additional observations from a re-analysis of the deposited data

Results flagged for a closer look

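Of 42 sets of values examined, each the wounds of 1 group for a member, LOC100513601, a sum or a share, 4 held a wound whose distance from its nearest neighbour was large for the range of the group (Dixon's 95% limit). Chance gives about 1 in 20 such sets. ERAP1 in non-diabetic replicate 3 stood at 0.291 FPKM, with a gap of 0.903 of the range, where the other 3 non-diabetic wounds reached at most 0.0283 FPKM. ERAP1 in diabetic replicate 2 stood at 3.81 FPKM, above the other diabetic wounds, with a gap of 0.668 of the range. SLA-8 in non-diabetic replicate 3 was the lowest of its group at 9.93 FPKM, with a gap of 0.850 of the range. LOC100513601 in the same wound was the lowest of the non-diabetic group at 273 FPKM, with a gap of 0.838 of the range, and was still above all diabetic wounds.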

How the results depend on the processing

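Over 23 alternatives to the test across genes, ERAP1 and SLA-8 were called in 22, SLA-5 in 18 and SLA-1 in 7, all with the same direction, and SLA-7 was called in 1. LOC100513601 was called lower in 22. The number of members called was 3 without a filter, with quantile normalization, with equal FPKM sums, with the side letter as covariate and without diabetic replicate 4 and non-diabetic replicate 1, and 2 to 5 with wounds left out one at a time, 2 of them without any one non-diabetic wound. Pathway genes called numbered 4 with library weights, where NFYA (lower) and HFE were added, 1 without diabetic replicate 4 and non-diabetic replicate 1, where B2M was lost, and 2 to 3 with wounds left out one at a time. Over all genes, 419 were called, 822 with library weights, 212 without diabetic replicate 4 and non-diabetic replicate 1, and 209 to 482 with wounds left out one at a time. With equal FPKM sums the share of calls that were higher was 34.2% against 44.9%. No alternative scaling moved the median of all genes by over 0.1.

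The replicate numbers of the labels do not pair the wounds: deviations of same-numbered wounds had correlations of -0.27, 0.22, 0.07 and -0.48. With the replicate block, 16 genes, 0 members and 0 pathway genes were called, and 0 ratios passed, where the smallest p that can be reached is 0.125. Of the 11 ratios, 9 had p under 0.05 in each other alternative run, 9 to 9 with wounds left out one at a time, though with 9 class I genes in the sum the SLA-3 ratio was lost and the SLA-6 ratio gained.

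Signs turned in these cases. SLA-1 became -0.52 when summed with LOC100513601. With the 9 class I genes as denominator, the SLA-2 ratio became 0.13, the SLA-6 ratio 0.43 and the TAP1 ratio 0.031. The SLA-6 ratio, near 0, also became 0.036 with reads in place of FPKM, 0.025 with the replicate block, 0.024 without diabetic replicate 4 and non-diabetic replicate 1, and lay between -0.026 and 0.021 with wounds left out one at a time. The B2M gene 397033 became -0.076 with quantile normalization, -0.021 with equal FPKM sums and -0.023 with the replicate block, and lay between -0.068 and 0.22 with wounds left out. The causes were not tested. Depth limits SLA-5 and ERAP1 in non-diabetic wounds, where ERAP1's log2 fold change went from 1.56 with a pseudocount of 1 to 6.10 with voom.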
